A study of Rattus norvegicus with 12 samples.

Results

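Transcripts of the red cell membrane and of its carbonic anhydrases were followed through 12 rat libraries made from bone defect hematoma and femur. The genes were a chosen list of 9: Slc4a1 (band 3), Epb42 (protein 4.2), Ank1 (ankyrin 1), Sptb (erythroid beta spectrin), Rhag (Rh-associated glycoprotein), Kel (Kell), Car1 and Car2 (carbonic anhydrases 1 and 2) and Klf1 (erythroid Krüppel-like factor). Of these 9 genes, 8 had values among the 17379 features of the data set, each through 1 RefSeq transcript, and Ank1 was not analysed here. The list was given by name, with no threshold on a measured value.

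All samples came from male SAS Fischer rats weighing between 200 and 225 g, and no genotype, agent or age was given. The 3 hematoma groups, of 3 libraries each, differ in the width of the gap made in the femur: 0.5 mm in the group that heals normally (normal), 1.5 mm in the group with delayed healing (delayed) and 5.0 mm in the nonunion group (nonunion). The fourth group, preOP, was the untreated piece of femur that was cut out to make 5.0 mm defects, also in 3 libraries. The labels give neither the time of collection nor whether libraries came from separate animals, or whether preOP and nonunion shared animals, so p-values measure the spread between samples, which may be technical. RNA was extracted with Trizol and sequenced after TruSeq library preparation, and totals ran from 16808993 to 24325162 estimated reads per library.

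As background, a red cell is wrapped by a spectrin net hung from its membrane. Band 3 exchanges chloride for bicarbonate and, through ankyrin and protein 4.2, is one of the anchors of that net. RhAG belongs to the Rh complex, which carries ammonia and possibly carbon dioxide and is linked to the same anchor, and Kell is a membrane zinc endopeptidase known as a blood group antigen. Carbonic anhydrases interconvert carbon dioxide and bicarbonate inside the cell, which supplies band 3 with its substrate. KLF1 is a zinc finger factor that switches on globin and many membrane genes in erythroblasts. These transcripts are made in marrow erythroblasts and are largely lost as the cell matures. Several have other sources: Car2 is also the acid-forming enzyme of osteoclasts, beta spectrin is also made in skeletal muscle, and Car1 in the colon.

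Promoters, from 250 bases before to 50 after the annotated start, were given by RefSeq (GRCr8) for 5 of the 8 measured genes: Rhag, Kel, Epb42, Sptb and Klf1. Those of Rhag, Sptb and Klf1 are shown because their windows hold AGATAA or TGATAA. These are 2 forms of the GATA-type core, the sequence read by the erythroid factor GATA1. Other forms were not searched, and AGATAG stands in the windows of Epb42 and, on the reverse strand, Kel. The 3 shown are thus not the only ones with such a core. Capitals mark AGATAA or TGATAA, searched on both strands so that TTATCA is a reverse-strand TGATAA, and in Sptb also CCNCNCCC, the form read by KLF1, or its reverse complement.
Rhag promoter, chr9:27594341-27594640, minus strand: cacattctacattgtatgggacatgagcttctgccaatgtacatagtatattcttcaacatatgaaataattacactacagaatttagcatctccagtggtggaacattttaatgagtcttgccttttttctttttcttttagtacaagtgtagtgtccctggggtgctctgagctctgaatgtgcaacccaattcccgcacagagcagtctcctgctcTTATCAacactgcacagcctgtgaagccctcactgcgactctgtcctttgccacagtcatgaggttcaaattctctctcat
Klf1 promoter, chr19:40158602-40158901, minus strand: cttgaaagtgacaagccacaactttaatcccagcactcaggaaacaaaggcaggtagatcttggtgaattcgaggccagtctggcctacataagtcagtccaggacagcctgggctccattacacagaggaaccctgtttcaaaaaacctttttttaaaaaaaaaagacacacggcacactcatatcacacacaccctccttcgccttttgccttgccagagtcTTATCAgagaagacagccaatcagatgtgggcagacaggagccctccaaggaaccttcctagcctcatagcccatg
Sptb promoter, chr6:101170229-101170528, minus strand: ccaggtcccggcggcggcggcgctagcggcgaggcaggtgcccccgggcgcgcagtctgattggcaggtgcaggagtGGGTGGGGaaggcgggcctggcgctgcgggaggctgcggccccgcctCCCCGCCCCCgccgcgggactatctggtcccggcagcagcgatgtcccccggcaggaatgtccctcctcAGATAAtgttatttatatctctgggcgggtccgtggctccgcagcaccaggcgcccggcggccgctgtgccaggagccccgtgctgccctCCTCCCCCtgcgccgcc

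TGATAA lay on the reverse strand at base -31 from the annotated start in Rhag and at base -26 in Klf1. Among all 33469 promoters of the same length, 9.0% held TGATAA on either strand. The other searched form, AGATAA, lay at base -57 in Sptb, and 11.6% of all promoters held it. Either of these searched forms was present in 3 of the 5 genes, against 18.9% of all promoters. CCNCNCCC had 4 matches in Sptb, at bases -173 (reverse strand), -126, -124 and 34, of which those at -126 and -124 overlap. It had none in the other 4 windows, and 46.3% of all promoters held it. Its stricter case CCACACCC was in none of the 5 and in 3.2% of all promoters. A match is a description of the letters and was not tied to binding in these samples.

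The 8 genes together took 0.8502% to 1.1741% of reads in preOP femur. In the hematomas their share was 0.0016% to 0.0121% for normal, 0.0051% to 0.0201% for delayed and 0.002% to 0.0059% for nonunion. Every gene stood higher in each preOP library than in any of the 9 hematomas. The lowest preOP value was 4.099 times the highest hematoma value for Sptb, and between 42.31 (Car2) and 146.6 times (Rhag) for the other 7. Levels below are counts per 1e6 reads (CPM) scaled by TMM over the 12 libraries, and 1 read was worth 0.0384 to 0.154 CPM. The TMM factor of nonunion 2 was 0.2668, and its place among nonunion libraries depended on scaling. For Slc4a1 it was highest in CPM (43.6). In deposited TPM, a level per transcript length, it was lowest (2.476 against 6.462 and 5.492). Kel did the same, at 1.85 CPM and at 0.218 TPM against 0.682 and 0.466.

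**Figure D1:**
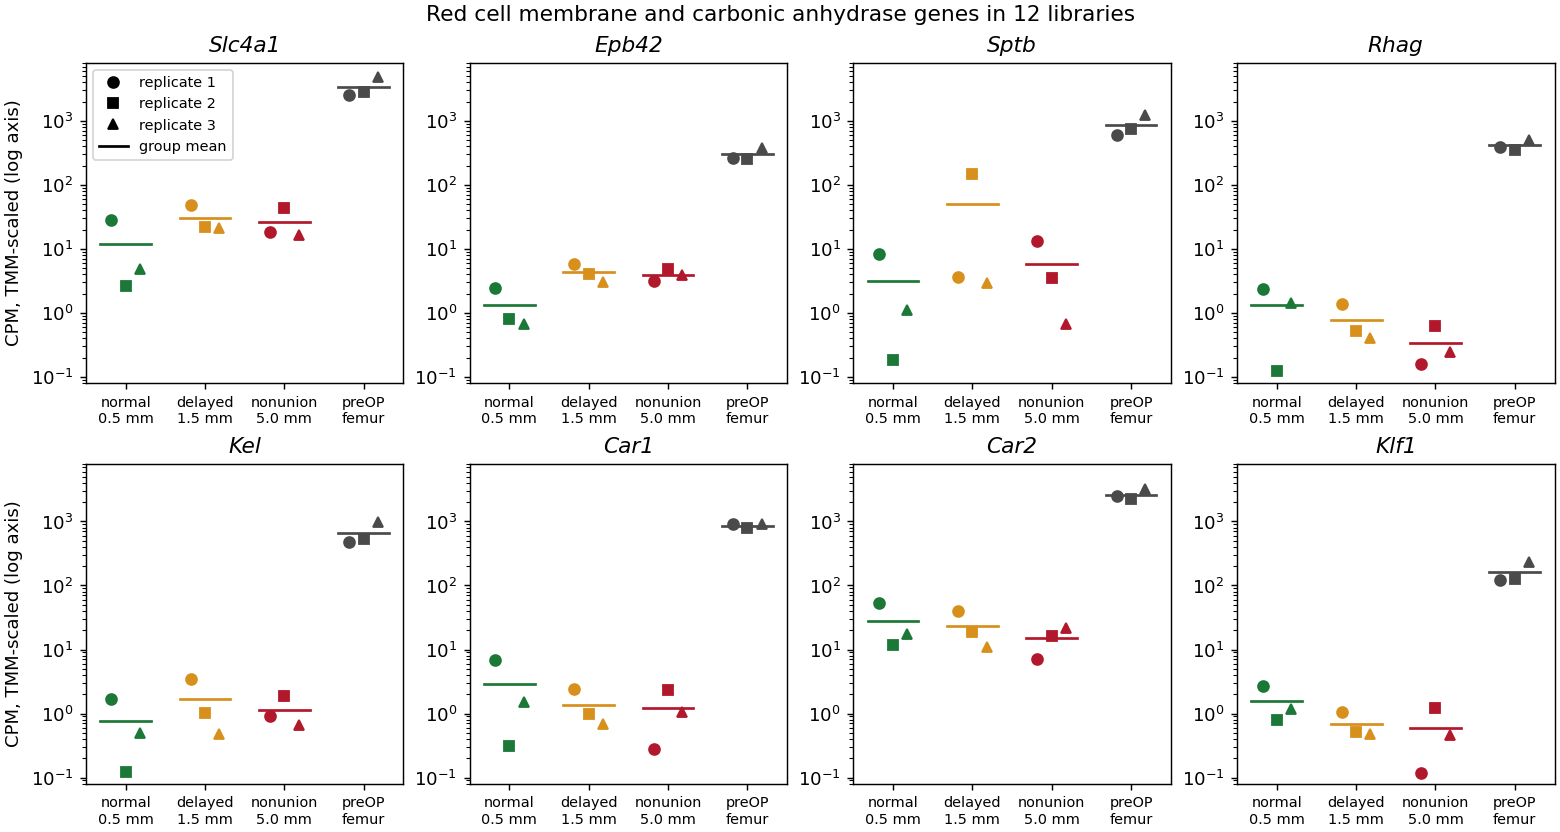
CPM of the 8 genes on a log axis in each library, 1 point per library with a line at the group mean, grouped as normal, delayed, nonunion and preOP. For every gene the 3 preOP points lie above all 9 hematoma points, and the nearest approach is Sptb in delayed 2 at 146 CPM, against 599.8 CPM in the lowest preOP library.

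Slc4a1 encodes band 3, the bicarbonate exchanger. It measured 28.2, 2.63 and 4.82 CPM in normal 1 to 3, 47.8, 22.0 and 21.4 in delayed, and 18.1, 43.6 and 16.3 in nonunion. In preOP 1 to 3 it measured 2551, 2815 and 4799.8 CPM. The hematoma groups overlapped one another, and normal 2 and normal 3 were the lowest of all. Means were 11.9 ± 14.2 CPM in normal, 30.4 ± 15.1 in delayed, 26.0 ± 15.3 in nonunion and 3389 ± 1229 in preOP (SD, n = 3 each). The log2 fold change against preOP was -8.15 (SE 1.04) for normal, -6.80 (SE 0.98) for delayed and -7.03 (SE 0.99) for nonunion, with adjusted p of 0.000266, 0.000768 and 0.000725 by edgeR's quasi-likelihood test with Benjamini-Hochberg adjustment over 12846 genes. In bulk RNA, fewer red cell precursors and less of this RNA per cell cannot be told apart, here and for the genes that follow.

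Epb42 encodes protein 4.2, which sits between band 3 and ankyrin. It measured 2.46, 0.796 and 0.676 CPM in normal 1 to 3, 5.91, 4.02 and 3.06 in delayed, and 3.12, 4.93 and 3.85 in nonunion, against 268, 250.2 and 383 in preOP. Each delayed and each nonunion library lay above each normal library in CPM. In deposited TPM, a level per transcript length, nonunion 2 at 0.514 lay below normal 1 at 1.323. Against preOP it fell, with a log2 fold change of -7.83 in normal (SE 0.58), -6.11 in delayed (SE 0.53) and -6.26 in nonunion (SE 0.54) and edgeR adjusted p of 4.74e-05, 8.03e-05 and 8.13e-05. Its SE was the smallest of the 8 genes in all 3 of these comparisons.

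Sptb, beta spectrin of the membrane skeleton, behaved differently in 1 library. It measured 8.27, 0.184 and 1.13 CPM in normal 1 to 3, 3.65, 146 and 2.94 in delayed, 13.4, 3.55 and 0.662 in nonunion, and 599.8, 758 and 1215 in preOP. Delayed 2 stood far above the other 8 hematomas, and preOP stood above all of them. Against preOP it fell, by a log2 fold change of -8.06 in normal (SE 2.02, edgeR adjusted p = 0.00849) and -7.17 in nonunion (SE 1.94, adjusted p = 0.018). For delayed the log2 fold change was -4.07 (SE 1.67) and did not pass (edgeR adjusted p = 0.0926). Without delayed 2 it was -7.79, with an edgeR adjusted p of 0.00642, and with DESeq2 on all libraries -4.00, with an adjusted p of 0.0287. The nonunion call had an adjusted p of 0.0501 without nonunion 2 and 0.0535 without nonunion 3.

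Delayed 2 was also the hematoma richest in skeletal muscle transcripts, and skeletal muscle is a known second site of beta spectrin. The summed level of the 14 measured genes of an 18-gene muscle list was 72460 CPM there, against 207.5 to 6899 CPM in the other 8 hematomas and 6729 to 14170 CPM in preOP, with none of the 14 at 0 reads in any library. Nonunion 1, next after delayed 2 for Sptb, was also next after it for the muscle sum, but normal 2, the third for the muscle sum at 4852 CPM, had the lowest Sptb of all hematomas (0.184 CPM). Epb42, of the same membrane, showed no such peak, at 4.02 CPM in delayed 2 against 5.91 and 3.06 CPM in delayed 1 and 3. The part of muscle RNA in the Sptb value was not tested.

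**Figure D2:**
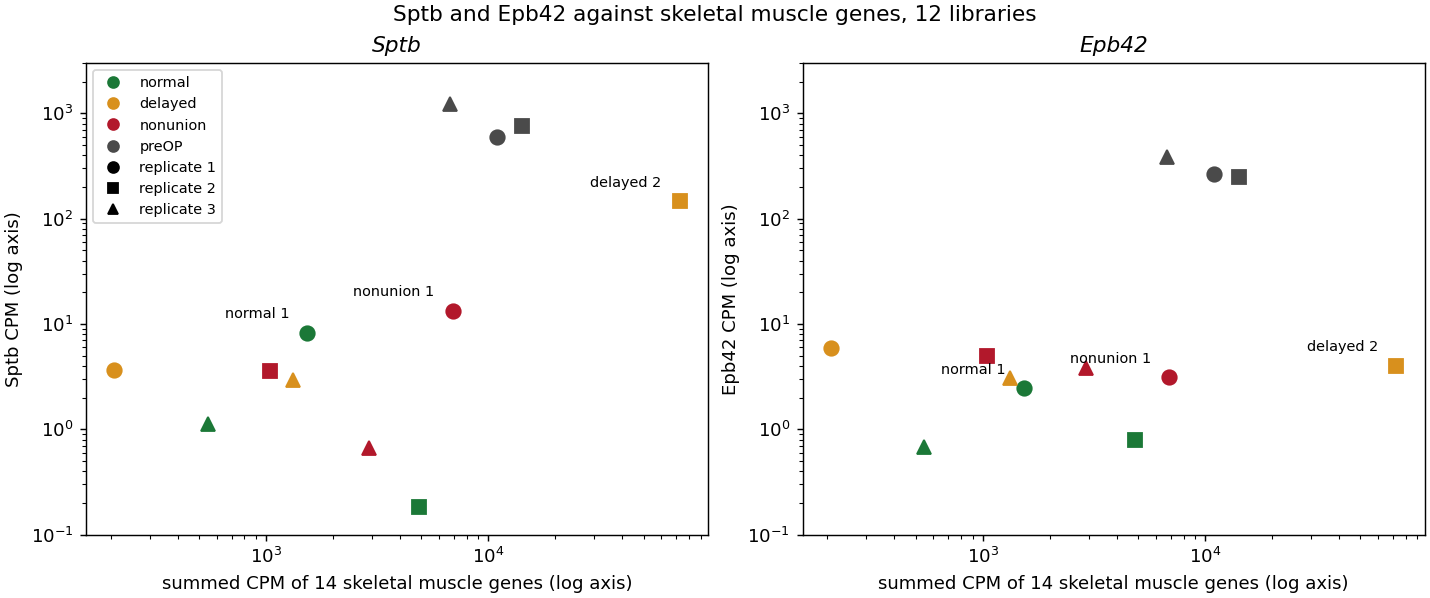
Sptb and Epb42 CPM on a log axis against the summed CPM of 14 skeletal muscle genes on a log axis, 1 point per library, coloured by group. Delayed 2, at 72460 CPM of muscle genes, lies apart from the other hematomas for Sptb (146 CPM) but not for Epb42 (4.02 CPM).

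Rhag encodes the Rh-associated glycoprotein of the red cell surface. It measured 2.41, 0.122 and 1.44 CPM in normal 1 to 3, 1.38, 0.516 and 0.403 in delayed, and 0.158, 0.617 and 0.248 in nonunion, which is 2 to 48 reads per hematoma. In preOP it measured 388, 353 and 511 CPM, or 7473 to 8286 reads. The hematoma groups overlapped, and normal 1 was the highest of them. Means were 1.32 ± 1.15 CPM in normal, 0.767 ± 0.535 in delayed, 0.341 ± 0.243 in nonunion and 417 ± 83.0 in preOP (SD, n = 3 each). Against preOP the log2 fold change was -8.28 (SE 0.90) in normal, -9.06 (SE 0.94) in delayed and -10.53 (SE 1.03) in nonunion, and the last was the most negative of the 24 member values against preOP. The edgeR adjusted p was 0.00014, 0.000149 and 0.000123.

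Kel, the Kell endopeptidase, measured 1.70, 0.122 and 0.496 CPM in normal 1 to 3, 3.49, 1.03 and 0.484 in delayed, and 0.910, 1.85 and 0.662 in nonunion. In preOP it measured 480.2, 533 and 965 CPM. Delayed 1 was the highest hematoma and normal 2 the lowest, at 91 and 2 reads, and the 3 hematoma groups overlapped. Kel fell in normal, delayed and nonunion against preOP, with log2 fold changes of -9.71 (SE 1.09), -8.61 (SE 1.04) and -9.28 (SE 1.08), with edgeR adjusted p from 0.00015 to 0.000328.

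Car1 is the low-activity carbonic anhydrase that is abundant in red cells. It measured 6.92, 0.306 and 1.53 CPM in normal 1 to 3, 2.46, 0.980 and 0.686 in delayed, 0.277, 2.31 and 1.08 in nonunion, and 912, 784 and 898 in preOP. Among the hematomas normal 1 was highest, and the groups overlapped. Against preOP its log2 fold change was -8.20 (SE 1.17), -9.28 (SE 1.23) and -9.62 (SE 1.26) in normal, delayed and nonunion, with edgeR adjusted p of 0.000463, 0.000478 and 0.000506.

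Car2, the high-activity enzyme of red cells and osteoclasts, measured 53.0, 11.8 and 17.5 CPM in normal 1 to 3, 39.3, 18.9 and 10.8 in delayed, and 7.20, 16.2 and 22.0 in nonunion. In preOP it measured 2466, 2242 and 3160.4 CPM. Means were 27.4 ± 22.3 CPM in normal, 23.0 ± 14.7 in delayed, 15.1 ± 7.48 in nonunion and 2623 ± 479 in preOP (SD, n = 3 each), with overlap among the hematomas and none with preOP. The log2 fold change against preOP was -6.58 (SE 0.79), -6.83 (SE 0.80) and -7.44 (SE 0.82) for normal, delayed and nonunion, with edgeR adjusted p of 0.000192, 0.000268 and 0.00023.

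Osteoclast genes tracked Car2 only in part. The 2 hematomas highest in Car2, normal 1 and delayed 1, were also the 2 highest in the summed level of 12 measured osteoclast genes of a 14-gene list, at 1320 and 1196 CPM. The third, nonunion 1 at 941.3 CPM, had the lowest Car2 of all hematomas (7.20 CPM). That sum ran from 631 to 1320 CPM over the normal libraries, from 434.3 to 1196 over delayed, from 428.1 to 941.3 over nonunion and from 767.4 to 842.2 over preOP, and of the 12 genes Calcr alone was at 0 reads, in nonunion 2. Of the 12 osteoclast genes, 4, 4 and 4 were called higher than in preOP in normal, delayed and nonunion, beside 20.5%, 12.6% and 13.5% of all genes. Lower calls were 1, 1 and 2 of the 12, beside 22.1%, 15.6% and 14.9% of all genes, while Car2 was lower in all 3. The part of osteoclast RNA in the Car2 level was not tested.

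Klf1, the erythroid transcription factor, measured 2.66, 0.796 and 1.17 CPM in normal 1 to 3, 1.07, 0.516 and 0.484 in delayed, and 0.119, 1.23 and 0.455 in nonunion. In preOP it measured 122, 124 and 233 CPM. It rested on 3 to 53 reads per hematoma and on 2476 to 3772 in preOP. Klf1 fell in normal, delayed and nonunion, with log2 fold changes against preOP of -6.68 (SE 0.74), -7.83 (SE 0.78) and -8.37 (SE 0.83), with edgeR adjusted p of 0.000143, 0.000129 and 0.000136.

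Counted together, 8 of 8 genes were called lower than in preOP in normal, 7 of 8 in delayed and 8 of 8 in nonunion, at an adjusted p below 0.05 in edgeR. Over all 12846 genes tested, 22.1%, 15.6% and 14.9% were called lower in these comparisons. Which direction held more calls depended on scaling. As reported, 2630 genes were higher and 2836 lower in normal, 1615 and 2007 in delayed, and 1736 and 1912 in nonunion. When globin genes were left out of the library totals, these became 2853 and 2608, 2059 and 1635, and 2015 and 1679. This shift was not particular to globin. Without ribosomal RNA genes instead, the counts were 2849 and 2605, 2054 and 1635, and 2008 and 1674. With DESeq2 size factors in edgeR they were 2813 and 2636, 1919 and 1739, and 1932 and 1729. The median log2 fold change of the 8 genes was -8.11, -7.33 and -7.90, beside -0.09, -0.03 and -0.00 over all genes. All 8 had hematoma libraries below all preOP libraries in each comparison, which held for 36.4%, 30.1% and 28.0% of all genes. The 3 comparisons share the same preOP libraries.

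**Figure D3:**
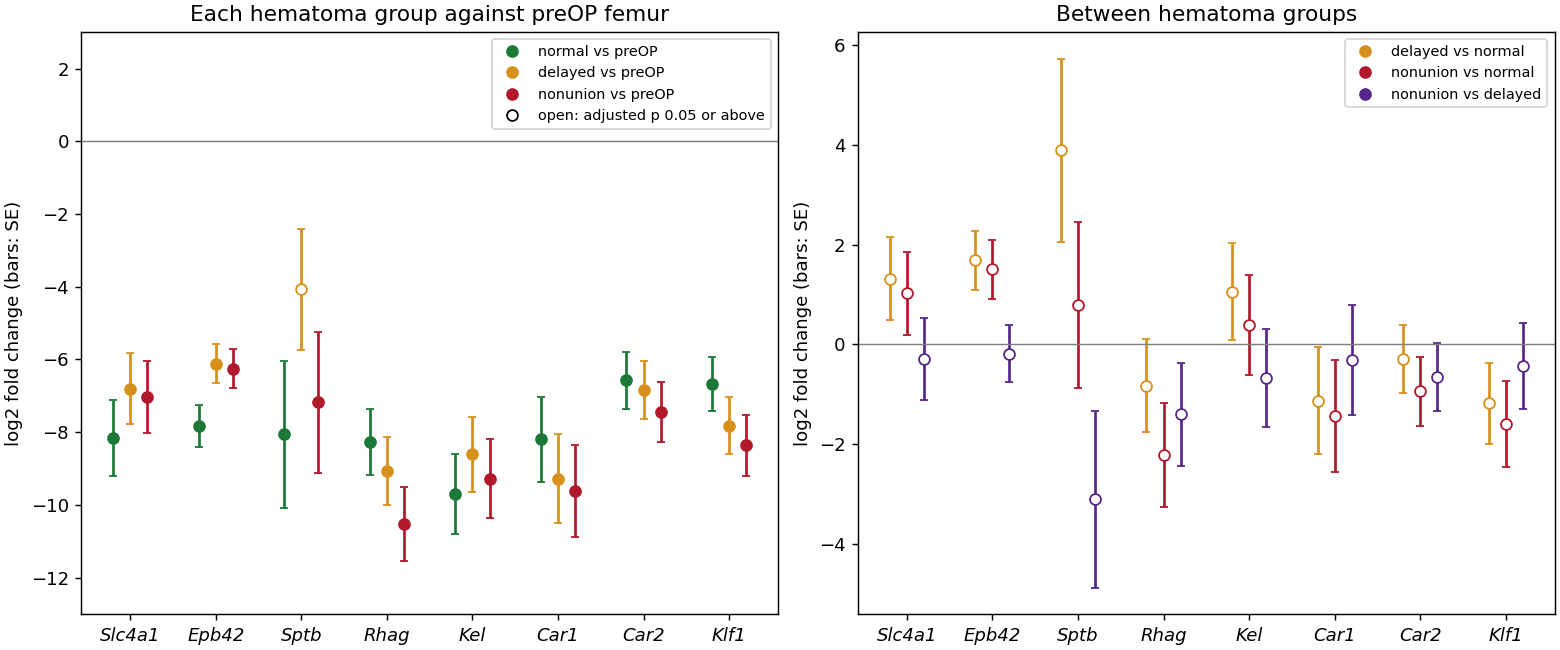
Log2 fold change of the 8 genes in the 6 comparisons, with bars of 1 SE and open symbols where the test was not passed. Against preOP every value lies below 0, from -4.07 (Sptb, delayed) to -10.53 (Rhag, nonunion), while among hematomas values lie on both sides of 0 and none passed the test.

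Levels between genes were compared per length, in TPM. In preOP Car2 led with 1820.1 ± 101 TPM (SD, n = 3), followed by Car1 at 769 ± 96.5 and Slc4a1 at 673 ± 149. Kel stood at 273 ± 70.1, Rhag at 186 ± 13.1, Epb42 at 110.5 ± 11.3, Sptb at 110.4 ± 26.5 and Klf1 at 104 ± 25.5 TPM. The ranges of Car1 and Slc4a1 overlapped, as did those of Epb42, Sptb and Klf1, so the order within these neighbours does not exceed their spread. Car2 was the highest of the 8 by TPM in 11 of 12 libraries. The exception was delayed 2, where Sptb led with 29.6 TPM. The excess of Car2 over Car1 was wider in hematoma: the TPM ratio was 5.56 to 30.9 in the 9 hematomas and 2.14 to 2.79 in preOP, with no overlap and with Car1 resting on 5 to 138 reads per hematoma.

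The hematoma groups were then compared with one another, which asks whether these transcripts track the healing outcome. None of the 8 genes was called between delayed and normal, nonunion and normal, or nonunion and delayed by edgeR, against 7.13%, 2.37% and 0% of 12474 genes called in either direction. At an unadjusted p below 0.05, Epb42 was the 1 gene of 8 in each of the first 2 comparisons, and there was 0 in nonunion against delayed. For all genes these numbers were 3212, 2557 and 881. With DESeq2, 1, 0 and 0 of the 8 genes were called, beside 2035, 1311 and 184 of all genes. The medians of the 8 genes were 0.39, -0.27 and -0.54 on the log2 scale, beside 0.02, -0.03 and -0.05 over all genes.

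Epb42 was the gene with the clearest separation in CPM. For nonunion this depended on scaling: the TMM factor of nonunion 2 was 0.2668, and in deposited TPM that library (0.514) lay below normal 1 (1.323). Its mean was 1.31 ± 0.995 CPM in normal, 4.33 ± 1.45 in delayed and 3.97 ± 0.910 in nonunion (SD, n = 3 each), on 13 to 154 reads per library. The log2 fold change over normal was 1.69 (SE 0.59, edgeR adjusted p = 0.116) for delayed and 1.51 (SE 0.59, adjusted p = 0.192) for nonunion, and DESeq2 called the first at 1.79 with an adjusted p of 0.0198. Groups without overlap of CPM in the higher direction were found for 16.1% and 14.1% of all genes in these comparisons. Between nonunion and delayed, Epb42 differed by -0.19 (approximate 95% interval -1.59 to 1.21).

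The other membrane genes had wide errors between hematoma groups. Slc4a1 was 1.32 (SE 0.84, edgeR adjusted p = 0.346) in delayed and 1.02 (SE 0.83) in nonunion over normal on the log2 scale. Sptb was 3.90 (SE 1.84, adjusted p = 0.219) in delayed over normal, and 0.02 without delayed 2. Kel was 1.06 (SE 0.98) and 0.39 (SE 1.00), with delayed and nonunion overlapping normal. Rhag had the opposite sign, at -0.83 (SE 0.94) and -2.22 (SE 1.04, edgeR adjusted p = 0.269). None of these values passed the test, and their signs do not establish a direction.

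The carbonic anhydrases and Klf1 had values below 0 in both comparisons with normal. Car1 was -1.12 (SE 1.08) in delayed and -1.44 (SE 1.12) in nonunion, Car2 was -0.29 (SE 0.68) and -0.94 (SE 0.69), and Klf1 was -1.18 (SE 0.81) and -1.60 (SE 0.86, edgeR adjusted p = 0.329). All overlapped between groups. Without single libraries the delayed value ranged from -1.86 to 0.53 for Car1 and from -0.94 to 0.63 for Car2. Both turned positive without normal 1, the highest hematoma for both. Car2 also did so without delayed 3 (0.05). Between nonunion and delayed all 8 genes had values below 0, from -0.19 (Epb42) to -3.10 (Sptb), with edgeR adjusted p from 0.811 to 0.996. For Car2 the approximate 95% interval of that difference was -2.34 to 1.03.

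The summed neutrophil precursor markers peaked in normal 1, while the megakaryocyte and B lymphocyte precursor sums peaked in other hematomas. Genes within these lists did not all move alike. Normal 1 was the highest hematoma for 4 of the 8 genes (Rhag, Car1, Car2, Klf1). Its summed level of 8 measured neutrophil granule precursor genes of a 10-gene list was 2177 CPM, against 362 and 492.8 in normal 2 and 3, 15.42 to 145.8 in the other hematomas and 2945 to 3597 in preOP. Ltf, a granule gene of that list, was at 0 reads in normal 1 and 2. The megakaryocyte and platelet sum was highest in normal 2 (403.4 CPM), with normal 1 next (323.4). Of its genes, Pf4 was not called in normal against preOP (log2 fold change -0.38). Ppbp, Gp1ba, Gp9 and Gp5 were called lower there, from -5.10 (Ppbp) to -3.87 (Gp5). The B lymphocyte precursor sum was highest in nonunion 2 (100.3 CPM), with normal 1 next (36.94). In nonunion 2, however, Rag1 and Dntt of its 7 genes were at 0 reads, as was Igll1 in nonunion 3. In nonunion over normal, 4 of these genes were tested, and edgeR called none. Their log2 fold changes were 1.22 (Ebf1), -0.0026 (Cd79b), -0.85 (Dntt) and -1.05 (Pax5). Delayed 1, the highest hematoma for Kel, Epb42 and Slc4a1, was the highest in globins, at 24210 CPM for 10 genes. The part of these cells in the values of the 8 genes was not tested.

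The genes were also set against globin RNA, the main product of the same cells. Globin genes took 14.6653% to 22.7581% of reads in preOP, 0.2733% to 0.7473% for normal hematomas, 0.2632% to 2.8315% for delayed and 0.0307% to 0.2197% for nonunion. Per 1000 globin reads, Slc4a1 had 4.33, 0.917 and 2.072 reads in normal 1 to 3, 1.973, 8.647 and 5.867 in delayed, 13.775, 37.844 and 9.671 in nonunion, and 17.764, 21.235 and 20.355 in preOP. Each nonunion library was above each normal and delayed library in this ratio, and nonunion 2 was above preOP. Epb42 had 0.277 to 0.378 for normal, 0.244 to 1.583 for delayed, 2.277 to 4.279 for nonunion and 1.625 to 1.887 for preOP, so that all nonunion libraries were above all preOP libraries. Nonunion also had the fewest globin reads, 7478 to 40844 per library.

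The other genes fell further than globin or overlapped with it. Rhag had 0.043 to 0.62 reads per 1000 globin reads in the 9 hematomas against 2.166 to 2.7 in preOP, Kel 0.043 to 1.605 against 3.344 to 4.092, and Car1 0.101 to 2.006 against 3.809 to 6.348, each without overlap. Car2, at 1.625 to 14.041 against 13.403 to 17.175, and Klf1, at 0.044 to 1.07 against 0.851 to 0.986, overlapped. Sptb ranged from 0.064 to 57.606, the highest being delayed 2, against 4.178 to 5.719. These ratios were given without a test.

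**Figure D4:**
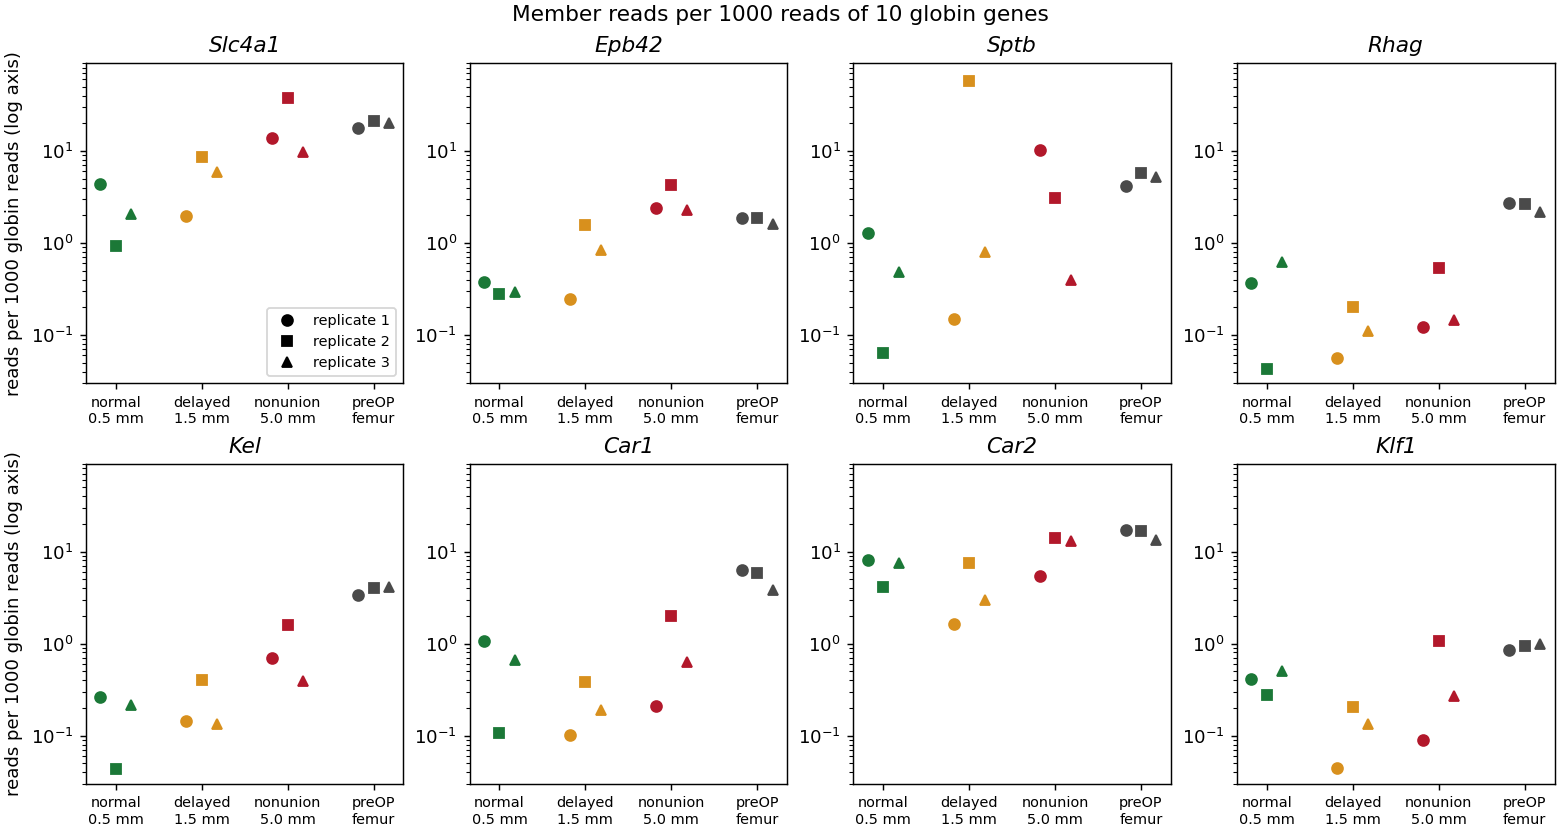
Reads of each gene per 1000 globin reads on a log axis, 1 point per library, by group. Rhag, Kel and Car1 lie lower in all hematomas than in preOP, whereas all nonunion points of Epb42 (2.277 to 4.279) and 1 nonunion point of Slc4a1 (37.844) lie above preOP.

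The ratio of band 3 to its erythroid regulator also differed between groups. In TPM, Slc4a1 was 3.27, 1.03 and 1.29 times Klf1 in normal 1 to 3, 13.5, 12.8 and 13.2 times in delayed, 45.9, 10.9 and 10.9 times in nonunion, and 6.35, 6.83 and 6.31 times in preOP. The normal libraries lay below all others, preOP lay between, and delayed and nonunion lay above. The hematoma ratios rest on 3 to 53 Klf1 reads, and no test was made of this ratio, which was noticed after the values were seen.

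The wider membrane skeleton, taken as 17 further genes, was mixed. Of 11 tested, 1, 1 and 1 were called higher and 5, 4 and 3 lower than in preOP in normal, delayed and nonunion, with medians of -1.39, -0.65 and -0.69. The single higher call in nonunion became 0 without preOP 2 or preOP 3 and 2 without nonunion 1, and on deposited TPM with limma the lower calls were 2 in normal and 2 in delayed. The background shares called higher were 20.5%, 12.6% and 13.5%, and those called lower 22.1%, 15.6% and 14.9%. Add2, beta adducin of the spectrin-actin junctions, fell, with log2 fold changes of -7.94 (SE 1.08), -7.19 (SE 1.04) and -9.17 (SE 1.16). Epb41l3, a protein 4.1 relative found mainly outside red cells, rose by 1.56 and 2.71 in normal and delayed, and the normal call was lost on deposited TPM with a pseudocount of 0.1 in limma (adjusted p = 0.0884). No gene of the list was called between hematoma groups.

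Of 27 other red cell surface genes, 22 were tested, and 13, 11 and 10 were called lower and 2, 3 and 2 higher than in preOP in normal, delayed and nonunion. Over all genes, 22.1%, 15.6% and 14.9% were called lower and 20.5%, 12.6% and 13.5% higher. The medians of the 22 were -2.11, -1.77 and -1.64. Rhd, the Rh protein that joins RhAG, fell, with log2 fold changes of -7.38 (SE 0.76), -7.51 (SE 0.77) and -8.83 (SE 0.83). Icam4, the Landsteiner-Wiener adhesion molecule of the same complex, fell as well, with -7.31, -8.14 and -7.35, as did Slc14a1, the urea transporter of the Kidd group, with -5.48, -6.45 and -7.00. The higher genes included Slc2a1, the glucose transporter found on most cells, at 4.38, 5.72 and 4.03, which was named after its values were seen and whose nonunion call was lost on deposited TPM with a pseudocount of 0.1 in limma (adjusted p = 0.139). Without delayed 2 and nonunion 2, 5 genes of the list were called higher in normal and 5 in nonunion. None of the 20 tested was called between hematoma groups.

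Beside Klf1, 28 of 30 listed erythroid regulators and enzymes were tested, and 26, 25 and 24 were called lower than in preOP in normal, delayed and nonunion, with none higher by edgeR. Over all genes, 22.1%, 15.6% and 14.9% were called lower. The medians of the 28 were -3.63, -4.04 and -3.75 on the log2 scale. Trim10, a ubiquitin ligase of terminal erythroid cells, fell, with log2 fold changes of -9.05, -8.22 and -8.44. Hemgn, hemogen, had -7.60, -7.96 and -8.97, and Ahsp, the alpha globin chaperone, had -8.05, -7.80 and -8.89, all called. No gene of the 26 tested between hematoma groups was called there.

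Of the remaining 14 listed carbonic anhydrases, 11 were tested. Of these, 3, 4 and 2 were called higher than in preOP in normal, delayed and nonunion, beside 20.5%, 12.6% and 13.5% of all genes. By edgeR 0 were called lower, beside 22.1%, 15.6% and 14.9% of all genes. Without delayed 2 and nonunion 2, 5 were called higher and 2 lower in normal, 3 lower in delayed and 1 lower in nonunion. Their medians were 0.73, 1.11 and 1.25 on the log2 scale. Car4, a membrane-anchored form, measured 9.62, 47.0 and 25.9 CPM in normal 1 to 3, 75.9, 20.1 and 74.9 in delayed, 35.5, 11.7 and 18.3 in nonunion and 0.938, 0.661 and 1.05 in preOP. All hematomas lay above all preOP libraries, and Car4 rose by 4.96 (SE 0.75), 6.01 (SE 0.78) and 4.63 (SE 0.74). Car13, a cytosolic form, rose by 1.88, 2.02 and 1.96, and its normal and nonunion calls were lost when deposited TPM were tested with limma at a pseudocount of 0.1 (adjusted p = 0.0631 and 0.182).

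Car9, the tumour-associated form known to be induced by low oxygen, rose by 2.14 (SE 0.77) in normal and 3.12 (SE 0.79) in delayed on the log2 scale, and was 2.00 (SE 0.76) in nonunion, which did not pass. The normal call was lost without any 1 of its 6 libraries (edgeR adjusted p from 0.0595 to 0.117), and the delayed call without preOP 2 (0.0523), while nonunion passed without nonunion 2 (0.00836). Car12, another transmembrane form, rose by 5.28 (SE 1.40) in delayed, a call that was lost without preOP 2 (0.0639) or preOP 3 (0.0663), and was at 0 reads in nonunion 2. Car3, the muscle and fat form, stood at 1831 CPM in delayed 2 and 5733 CPM in nonunion 2. It was at 3.65 to 20.8 CPM in the other hematomas and 366 to 539.6 in preOP. Its order depended on scaling, since the highest value was 4360 TPM in delayed and 2293 TPM in nonunion. Car3 was named after its values were seen, as was Car14, at 53.6 CPM in delayed 2. Delayed 2 was the highest hematoma in summed muscle genes (72460 CPM), and nonunion 2 in summed adipocyte genes (16050 CPM). Ribosomal RNA made up 72.17% of nonunion 2 and no more than 1.74% of any other library.

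**Figure D5:**
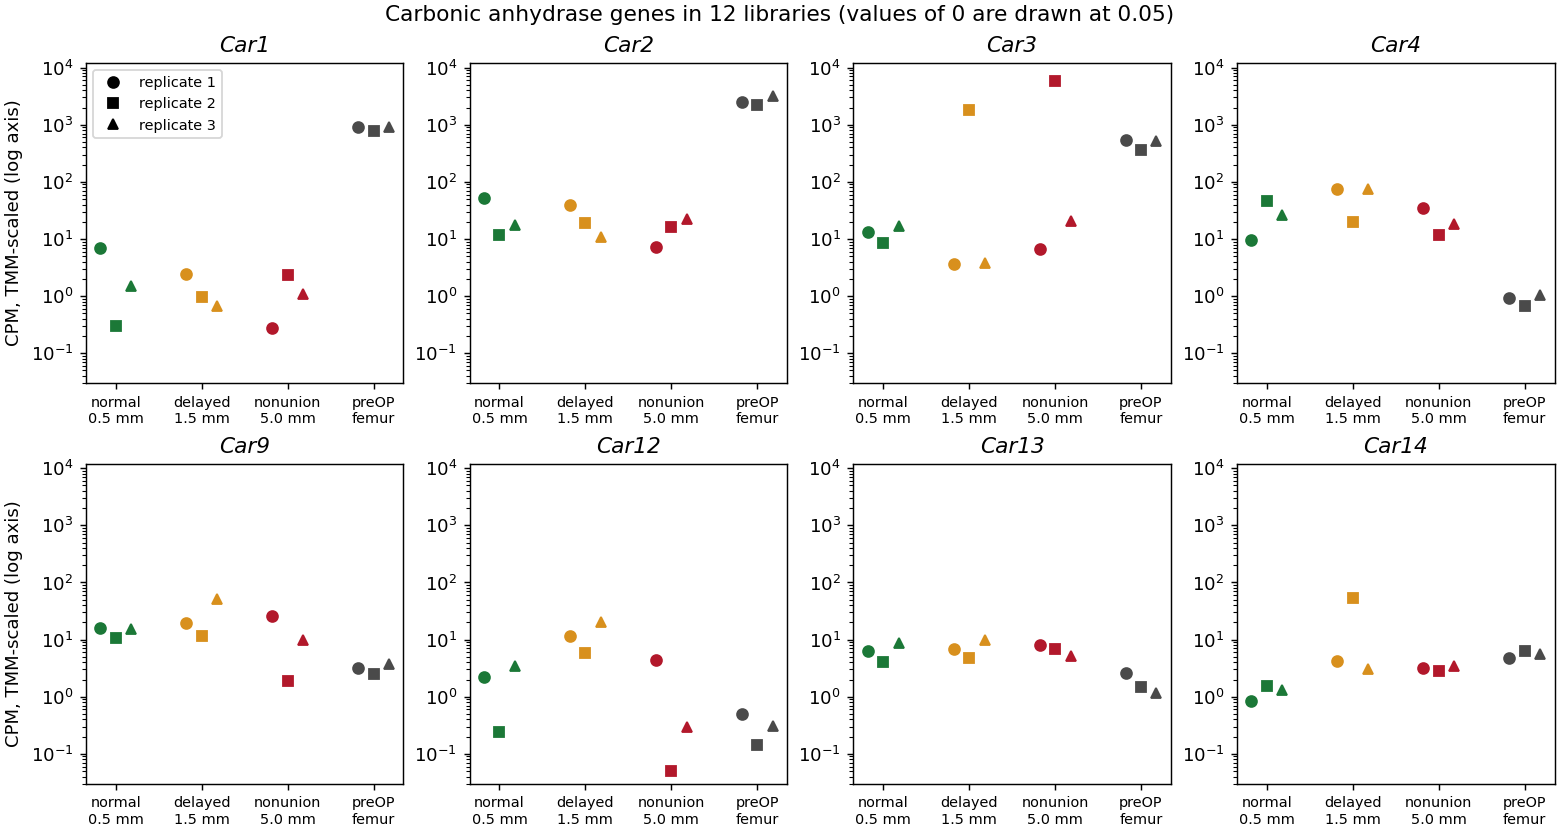
CPM of carbonic anhydrase genes on a log axis, 1 point per library, by group, with values of 0 drawn at 0.05. Car1 and Car2 lie highest in preOP, Car4 lies higher in all 9 hematomas (9.62 to 75.9 CPM) than in preOP (0.661 to 1.05 CPM), and Car3 reaches 1831 CPM in delayed 2 and 5733 CPM in nonunion 2.

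Genes with the most similar profile were named by the mean absolute difference of centred log2 CPM over the 12 libraries, among 12845 other genes, without a test. For Slc4a1 the nearest included Epb42 (0.496), Pklr (0.595), Trim10 (0.685), Aqp3 (0.754), Kel (0.762) and Hbbl1 (0.786), against a median of 2.863 over all genes. For Car2 they were Rhd (0.368), Hbb-bs (0.45), Klf1 (0.495), Slc30a10 (0.501), Pklr (0.511), Tmcc2 (0.526), Trim58 (0.561) and Atp6ap1l (0.566), against a median of 2.691. Klf1 was thus the nearest to Car2 among the other 7 measured genes of the list, and Epb42 the nearest to Slc4a1.

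Deposited files of the normal group differed in form from the other 9: 16.8% to 18.1% of their read numbers carried a decimal point, against 100% elsewhere, and their effective lengths were shorter than the full lengths by a median of 157.2 to 191.6 bases, compared with 194.3 to 254.6 in the others. That difference and the normal group cannot be told apart, which bears on every comparison with normal. The 9 osteoblast genes had sums of 43450 to 51190 CPM for normal, 13400 to 34510 for delayed, 8875 to 24360 for nonunion and 3754 to 4227 for preOP. Single genes did not all follow these sums. Against preOP, edgeR called 7, 3 and 2 of the 9 higher in normal, delayed and nonunion, beside 20.5%, 12.6% and 13.5% of all genes. Lower calls were 1, 4 and 4, beside 22.1%, 15.6% and 14.9%. In delayed and nonunion the log2 fold change of Ibsp was -5.57 and -5.47, and that of Spp1 6.31 and 6.29.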

How the data were processed

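RNA sequencing values of 12 libraries in 4 groups of 3 were used. Per the submitters' processing notes, the authors' tools were Salmon, which made the values, and upstream of it Trimmomatic, FastQC and bcl2fastq 1.8.4, with rn6 as the build and no other version stated. The deposited files give, per the file headers, unscaled estimated counts per transcript, TPM (per 1e6 transcripts, after division by length) and effective lengths in bases for 18321 RefSeq transcripts.

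After rounding, the estimated counts of transcripts with 1 symbol were added up, with symbols from RefSeq (GRCr8, used for names and promoters only, with no coordinate taken from the files). This matched 17367 transcripts to 16425 symbols and left 17379 features. Pairs of libraries with identical values numbered 0. Totals ran from 16808993 to 24325162 reads, and 1 read was worth 0.0384 to 0.154 CPM.

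The quasi-likelihood test of edgeR 4.0.16 (R 4.3.3) was run on genes kept by filterByExpr with a minimum count of 10, with TMM scaling. Hematoma comparisons came from 9 libraries (6 residual degrees of freedom, 12474 genes) and preOP comparisons from all 12 (8 residual degrees of freedom, 12846 genes). A gene was called where its two-sided p, adjusted by Benjamini-Hochberg over all genes, was below 0.05. The SE was taken as the size of the log2 fold change over the square root of F. Fits were tested on simulated data. Alternatives were DESeq2 1.42.0, its size factors in edgeR, no filter, a replicate block, other sets of libraries, no globin or ribosomal RNA genes, limma 3.58.1 on log2(TPM + 0.1) and log2(TPM + 1), and each library left out.

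The genes and lists were chosen with earlier results of these data known. All 9 chosen genes were followed. From each other list, the genes named are among the 3 called genes with the largest absolute change in each comparison, and genes among the 8 nearest profiles are given for Slc4a1 and Car2. Some genes that the rule takes are not reported here. Genes outside the rule are said to be so. Replicate numbers were not used to pair samples in the main fits, since the labels give no pairing. Correlations of deviations between same-numbered libraries were not above 0.1 in every pair of any comparison. With 3 libraries per group they cannot exclude a pairing.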

Additional observations from a re-analysis of the deposited data

How the results depend on the processing

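For the 8 genes, 48 fold changes were recomputed under the alternatives, giving 767 values. Of these, 741 kept their direction and side of the threshold, 18 reversed, 6 became called and 2 lost their call. No reversal was in a comparison with preOP. Between hematoma groups the signs are not stable. Leaving out 1 library gave, on the log2 scale for delayed against normal, -1.86 to 0.53 for Car1, -0.94 to 0.63 for Car2 and -0.11 to 2.35 for Kel. For nonunion against normal it gave -2.06 to 0.22 for Car1 and -0.83 to 3.04 for Sptb. For nonunion against delayed it gave -1.07 to 0.43 for Car1, -0.38 to 0.12 for Epb42, -1.14 to 0.50 for Kel, -1.31 to 0.13 for Klf1, -0.87 to 0.20 for Slc4a1 and -4.72 to 0.77 for Sptb. Car2 in delayed against normal was 0.17 and 0.15 on deposited TPM with pseudocounts of 0.1 and 1. Sptb in nonunion against delayed was 1.01 without delayed 2 and nonunion 2. The causes were not tested. The called and lost values were Epb42 in DESeq2 and Sptb, given with those genes. Of 862 values of the list genes against preOP, 818 were unchanged in this sense, 28 lost a call, 13 gained one and 3 reversed: Add3 in delayed, 0.0369 and 0.0349 on TPM, and Car12 in nonunion, with -0.54 to 3.00 when 1 library was left out.

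Counts of all genes called were 889 (delayed against normal), 296 (nonunion against normal), 0 (nonunion against delayed), 5466 (normal against preOP), 3622 (delayed against preOP) and 3648 (nonunion against preOP). DESeq2 gave 2035, 1311 and 184 for the first 3, and called 1 of the 8 genes in delayed against normal. Without delayed 2 and nonunion 2, delayed against normal had 2076 and nonunion against delayed 60. TPM with limma gave 328 and 338 for delayed against normal, 1896 and 1973 for normal, 1331 and 1452 for delayed and 1002 and 1028 for nonunion against preOP, at pseudocounts of 0.1 and 1. It moved the median of all genes by more than scaling did, to -0.78 in nonunion against delayed and 0.54 in delayed against preOP at 0.1. The split of nonunion against preOP was 1736 higher and 1912 lower, but 260 and 742 on TPM at 0.1. Leaving out 1 library gave 176 to 726, 23 to 159, 0 to 1, 3952 to 4846, 2292 to 4033 and 2338 to 4221 genes in the order above, and 0 to 0, 0 to 0, 0 to 0, 8 to 8, 7 to 8 and 7 to 8 of the 8 genes.

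The replicate block gave 433 and 148 genes for delayed and nonunion against normal and changed no count of the 8 genes called. It turned Car1 in nonunion against delayed to 0.20. The numbers are not a known pairing: correlations of deviations ran from -0.182 to 0.187, and in nonunion against delayed each library correlated best with its own number (0.109, 0.067 and 0.108), a hint from the data and not from the design. Precision is limited in the hematomas with few reads of a gene: Rhag, Kel, Klf1, Sptb and Car1 had as few as 2 to 5 reads in some libraries. Groups of 3 libraries were too small for a search for outlying samples.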

Other observations

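Other cell types differed between femur and hematoma in the same libraries. The 5 measured megakaryocyte and platelet genes summed to 1016 to 1173 CPM in preOP and to 33 to 403.4 CPM in the hematomas, and 4 of 5 in normal, 5 in delayed and 5 in nonunion were called lower than in preOP by edgeR. The 8 macrophage genes summed to 463.3 to 793.6 CPM in preOP and to 970.5 to 2002 CPM in the hematomas, and 3, 4 and 4 were called higher. The 7 B lymphocyte precursor genes summed to 128.3 to 239.7 CPM in preOP and to 10.96 to 100.3 CPM in the hematomas, and 6 of 7 were called lower in each group. Over all genes, 22.1%, 15.6% and 14.9% were called lower than in preOP in normal, delayed and nonunion, and 20.5%, 12.6% and 13.5% higher.

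Car2 made up a changing share of the reads on the 8 red cell genes. Its share was 50.19% to 70.44% for normal, 9.72% to 37.44% for delayed, 16.65% to 48.63% for nonunion and 25.98% to 31.67% for preOP, so the 3 normal libraries lay above all others. Band 3 per protein 4.2, in TPM, was 1.81 to 6.29 in the hematomas and 5.20 to 6.85 in preOP, with overlap.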
